A study of Mus musculus with 12 samples.

Results

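A set of 10 genes of lysosomal proteolysis was followed across all 12 RNA sequencing libraries of the study: the cathepsins Ctsa, Ctsb, Ctsc, Ctsd, Ctsh, Ctsk, Ctsl and Ctss, legumain (Lgmn) and the secreted inhibitor cystatin C (Cst3). They were chosen by gene symbol, all 10 were among the 14098 genes of the table, and all 10 passed the filter on low values that left 11194 genes for testing. The cells were bone marrow-derived macrophages (BMDM) from male and female C57Bl/6 mice aged 8 to 10 weeks, either wild type (WT) or Camkk2-/- (KO), the latter lacking a calcium- and calmodulin-dependent kinase in every cell of the animal. BMDM grown with L929-conditioned medium in low-attachment wells were embedded in a collagen-hyaluronic acid hydrogel and kept soft, kept soft with interleukin-4 (soft+IL-4), or stiffened by UV crosslinking with Irgacure 2959 at 24 h after embedding (stiff). The paper also describes a higher collagen concentration in the stiff gel, and lists no photoinitiator or UV light for the soft gel. Stiff and soft thus differed in collagen and in exposure of the cells to photoinitiator and UV light, as well as in crosslinking. The paper reports that neither the UV exposure nor the added collagen alone altered macrophage phenotype, judged by surface markers in flow cytometry rather than by RNA. Each of the 6 combinations of genotype and gel had 2 libraries. Culture went on for 48 h after stiffening, and all cells were then released with collagenase IV at 400 U/mL, so every library, controls included, came from enzyme-treated cells.

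Cathepsins are made as inactive precursors, sorted to the lysosome largely by a phosphorylated mannose tag, and activated by the acid that the proton pump (V-ATPase) keeps there. In macrophages they break down engulfed material and process proteins for antigen presentation, and some are secreted and cut matrix. Cystatins bind the active site of the cysteine cathepsins and hold them in check, and IL-4 is a cytokine that drives macrophages toward the alternatively activated, pro-regenerative state.

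Sequence near the transcription starts is shown for the genes with a match to CACGTG, the core of the element bound by the MiT family of lysosomal gene regulators (TFEB and relatives), since the members' changes below are read beside those of that family. RefSeq promoter windows on GRCm38.p6, each from 250 bases before to 50 after a start, existed for 8 of the 10 genes (10 windows, with 2 each for Ctsa and Lgmn), and Ctsb and Ctsh had none. On either strand, CACGTG lay in windows of 4 of the 8 genes and in 7.15% of all 32851 windows, and the longer TCACGTGA, which contains it, in windows of 2 genes (Ctsa and Ctsd) and in 0.974% of all windows. The STAT-type spacing, TTC and GAA with 4 bases of any kind between them, was in no member window and in 6.95% of all, and the ETS-type GGAAGT was in windows of 4 member genes and in 23.8% of all. The CACGTG matches began at -12 and 6 in an alternative Ctsa window and at -245 and -98 in Ctsd. They began at -236 in Ctsl and at -49 in an alternative Lgmn window. Positions count from the RefSeq start of the window as 1, with no position 0. In the GENCODE vM21 annotation, Ctsl begins at chr13:64370890 and Ctsd at chr7:142388038, both on the minus strand. All these matches but the -245 one of Ctsd thus lie inside the annotated gene, downstream of its outermost start. Up to 12 bases on either side are given 5′ to 3′ on the strand of the gene, with the match in capitals.
Ctsa, chr2:164833749-164833778, plus strand: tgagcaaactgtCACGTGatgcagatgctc
Ctsa, chr2:164833766-164833795, plus strand: gatgcagatgctCACGTGaccagagctaca
Ctsd, chr7:142388055-142388077, minus strand: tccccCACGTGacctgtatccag
Ctsd, chr7:142387908-142387937, minus strand: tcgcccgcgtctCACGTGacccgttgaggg
Ctsl, chr13:64370739-64370768, minus strand: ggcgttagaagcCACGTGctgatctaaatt
Lgmn, chr12:102439124-102439153, minus strand: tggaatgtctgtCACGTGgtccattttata

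Ctsc had no CACGTG in its window, and the 250 bases before its start are shown for contrast because it had the largest change with IL-4 among the 10 genes. The capitals mark ACTTCC, which is GGAAGT read on the other strand.
Ctsc, chr7:88277835-88278084, plus strand: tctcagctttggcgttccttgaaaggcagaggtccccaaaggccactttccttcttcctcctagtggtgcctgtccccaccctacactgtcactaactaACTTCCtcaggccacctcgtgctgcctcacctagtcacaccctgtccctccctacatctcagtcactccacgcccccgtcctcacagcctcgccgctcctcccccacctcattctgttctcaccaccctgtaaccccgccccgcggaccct

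In the GENCODE vM21 annotation of GRCm38 all 10 were protein-coding genes, spread over chromosomes 2, 3, 7, 9, 12, 13 and 14. Ctsk (chr3:95499256-95509362) and Ctss (chr3:95526786-95556403) were neighbours on the plus strand, 17423 bases apart with no gene lying wholly between them. Exons of Ctsd shared 808 bases with Gm49369 on the same strand, and those of Ctsl shared 395 bases with the processed pseudogene Gm49230 on the same strand and 1742 with the antisense gene Gm47123, and none of these 3 genes was in the table. On the opposite strand, exons of Ctsa shared 324 bases with Neurl2 and 495 with Pltp, and those of Ctsb shared 774 with Fdft1, all of which were in the table. The levels of Ctsd and Ctsl are uncertain to the extent that reads of the same-strand stretches were shared. The paper describes strand-specific libraries. For overlaps on the opposite strand, the only kind in Ctsa and Ctsb, the same holds only if the strand was not used in assigning reads.

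Values were TPM, transcript abundance divided by transcript length and scaled to the same total in every library, so that levels can be compared between genes. The files give no counts, so the depth behind each value is unknown. Replicates were described as biological without naming animals, so the p-values below measure the spread between these libraries only. The WT and KO labels went against the level of Camkk2 itself in 3 libraries. Libraries 1 and 2 under the label WT soft had 44.2 and 11.7 TPM of it, those under KO soft 46.6 and 11.5, and those under KO stiff 37.7 and 10.0. The other groups were even, with 30.5 and 29.8 TPM for WT soft+IL-4, 23.3 and 23.7 for WT stiff, and 11.5 and 8.54 for KO soft+IL-4. WT soft 2 was thus as low as the KO libraries that fit their label, and KO soft 1 and KO stiff 1 were as high as WT soft 1, so WT and KO name labels in all that follows, and every genotype direction rests on them. WT stiff 1 stood apart from every other library, at a root mean square distance of at least 0.69 on log2(TPM + 1), where other replicate pairs lay 0.29 to 0.39 apart. WT stiff 2 lay 0.19 from WT soft+IL-4 2, closer than the 2 libraries of any group, and 0.69 from WT stiff 1. WT soft 2 and KO soft 2 were also close, at 0.20. Libraries numbered 1 had 10.7 to 13.4% of genes at 0, and those numbered 2 had 5.90 to 7.54%. All 8 macrophage markers examined were present, and no fibroblast marker reached 1 TPM in any library. The summed level of the macrophage markers, most of it from the lysozyme gene Lyz2, was not even: it was 50794 to 57261 TPM in the soft groups, 23635 to 25599 in soft+IL-4, 23643 to 24756 in WT stiff and 45472 to 48072 in KO stiff. It was thus low in the groups in which Ctsd, Ctsc and Lgmn are given as lower below. Lyz2, Adgre1, Csf1r, Fcgr1 and Mertk were below every soft library in soft+IL-4 and WT stiff. Cd68 stayed at 1813 to 2123 TPM in all 12 libraries, and Itgam overlapped the soft libraries in WT stiff. Mrc1 was higher, at 180 to 436 TPM in soft+IL-4 and WT stiff against 52.7 to 88.9 in soft. The part of the macrophage sum in the values below was not tested.

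The 10 genes made up 2.83 to 3.18% of all transcripts by TPM, and their median levels ran from 9506 TPM for Ctss to 69.0 TPM for Ctsk. Ctss, the cathepsin that stays active outside the lysosome and trims the class II invariant chain, ranked between 6th and 9th of all genes in every library, at 8042 to 10734 TPM. Ctsd, the aspartic protease of the lysosome, ranked 7th to 14th at 6038 to 9244 TPM. Cst3 (4411 to 6031 TPM) and Ctsb (3047 to 4898 TPM), a cysteine protease that also acts as a dipeptidase, followed. Ctsl, a cysteine endopeptidase, lay at 1465 to 2927 TPM and Lgmn, which cuts after asparagine and helps activate other cathepsins, at 895 to 1165 TPM. The 4 genes of lower level were Ctsa, a serine carboxypeptidase that also protects lysosomal galactosidase (497 to 548 TPM), Ctsh, an aminopeptidase (204 to 288 TPM), Ctsc, which activates granule serine proteases (65.3 to 157 TPM), and Ctsk, the collagen-cutting cathepsin of osteoclasts (38.7 to 181 TPM). The order held in all 12 libraries for every neighbouring pair but 3. Ctss was above Ctsd in 9 of 12, with the reverse in WT soft 2, KO soft 2 and KO stiff 2, Cst3 was above Ctsb in 11 of 12, and Ctsc was above Ctsk in 9 of 12. Ctsa varied least, by 1.10-fold from its lowest to its highest library, and Ctsk most, by 4.67-fold.

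**Figure D1:**
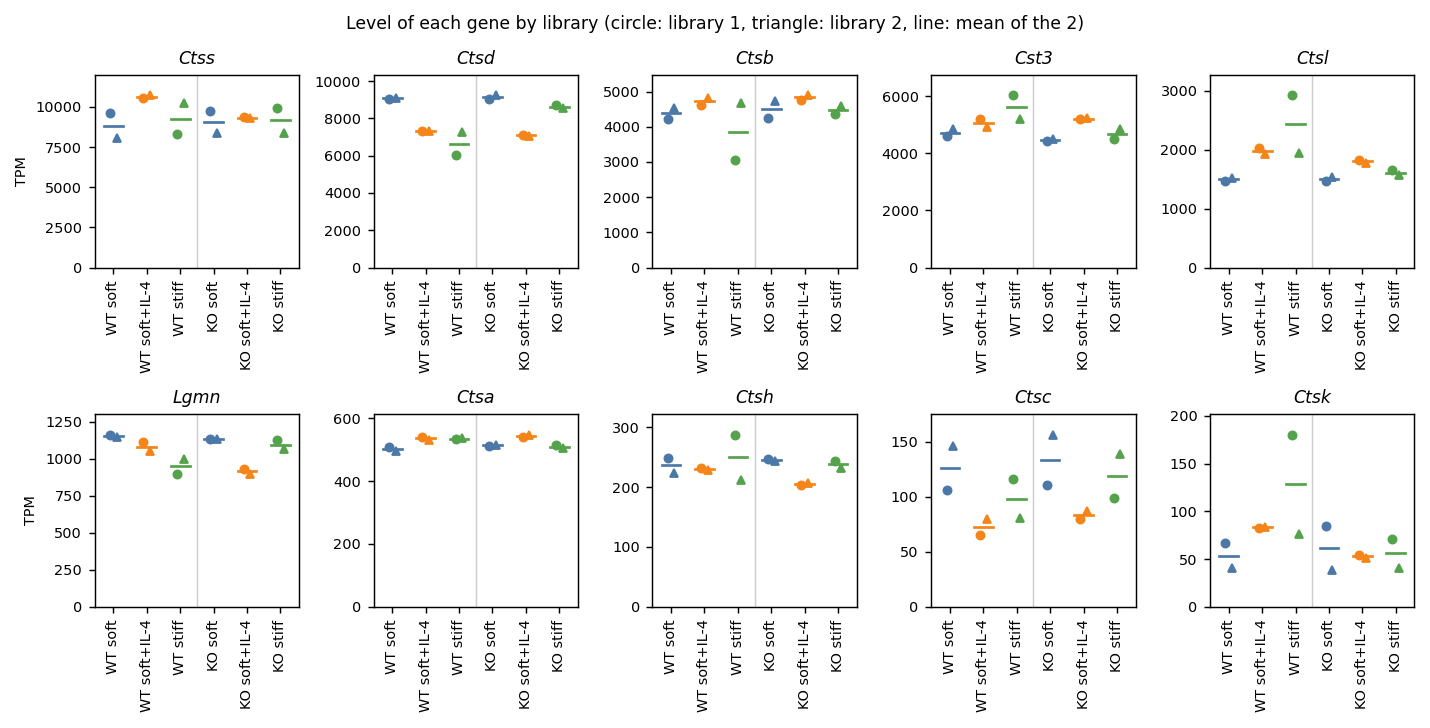
TPM (linear axes from 0) of each gene in the 6 groups, with a circle for library 1, a triangle for library 2 and a line at the mean of the 2. Ctsd sits at 7077 to 7348 TPM in the 4 soft+IL-4 libraries against 9028 to 9244 TPM in the 4 soft libraries, and WT stiff 1 is the extreme library for 7 of the 10 genes.

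IL-4 on soft gel, averaged over the WT and KO labels, was accompanied by less Ctsd, Ctsc and Lgmn, and no member passed as higher (9.84% of all genes did). With 3 of 10 genes past an adjusted p of 0.05, all lower, the members stood against 22.9% of all genes called in either direction and 13.1% called lower. At unadjusted p under 0.05 there were 4 of 10, against 35.1%. All 3 falls were below 2-fold, and at an added limit of 1 on the absolute log2 change no member passed in this comparison (4.35% of all genes did) or in any of the other 11. For those the share of all genes was 3.97% for stiffening in WT, 3.76% and 3.65% for IL-4 in WT and KO, 1.98% for KO against WT on stiff gel, 1.35% for stiffening averaged over labels, 0.67% for the difference of stiffening changes, 0.0447% for stiffening in KO and 0 for the other 4.

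Ctsd was 9057 and 9100 TPM in WT soft, 9028 and 9244 in KO soft, 7334 and 7348 in WT soft+IL-4, and 7101 and 7077 in KO soft+IL-4. The 4 IL-4 libraries lay below all 4 soft libraries, with a mean of 7215 TPM ± 146 against 9107 ± 96.0 (SD, n = 4 each). The log2 change was -0.34 (SE 0.0844, limma, Benjamini-Hochberg adjusted p = 0.0189), a fall of 20.8%, and was -0.33 within libraries numbered 1 and -0.35 within those numbered 2. The IL-4 numbers are those after IL4 in the titles, all of which also carry Soft 1, so the labels do not tie an IL-4 library to the soft library of its number.

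Ctsc, the dipeptidyl peptidase that converts granule proteases to their active form, changed most. Its levels were 106 and 146 TPM in WT soft and 111 and 157 in KO soft, against 65.3 and 80.1 in WT soft+IL-4 and 80.1 and 87.0 in KO soft+IL-4. Every IL-4 library was again below every soft library, though the soft libraries numbered 2 were well above those numbered 1. The log2 change was -0.71 (SE 0.175, limma, Benjamini-Hochberg adjusted p = 0.0167), with -0.58 within number 1 and -0.85 within number 2.

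Lgmn stood at 1165 and 1145 TPM in WT soft, 1137 and 1136 in KO soft, 1112 and 1053 in WT soft+IL-4, and 934 and 896 in KO soft+IL-4. No IL-4 library reached a soft one, and those labelled KO were the lower pair. Averaged over labels the log2 change was -0.20 (SE 0.0625, limma, Benjamini-Hochberg adjusted p = 0.0432). By label it was -0.09 for WT and -0.31 for KO, but the difference of these changes, -0.22 (SE 0.125), did not pass (limma, Benjamini-Hochberg adjusted p = 1).

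Ctsl was higher in each of the 4 IL-4 libraries than in any soft library without passing the threshold. It read 1471 and 1519 TPM in WT soft, 1465 and 1535 in KO soft, 2025 and 1928 in WT soft+IL-4, and 1826 and 1777 in KO soft+IL-4. Its log2 difference was 0.33 (SE 0.114, limma, Benjamini-Hochberg adjusted p = 0.0637). Cst3 was at 4411 to 4855 TPM in soft and 4913 to 5222 TPM in soft+IL-4, and Ctsa at 497 to 516 and 532 to 548 TPM. Neither passed, although both sets of 4 libraries were apart. In all, 6 of the 10 genes had no overlap between the 4 soft and 4 soft+IL-4 libraries, against 36.9% of all genes tested. Ctsb, Ctsh, Ctsk and Ctss overlapped, with log2 differences of 0.11, -0.14, 0.28 and 0.16 and none past the threshold.

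Leaving out either WT stiff library, or fitting only the 8 libraries compared, changed these calls to 6. Without WT stiff 1 they were Ctsd, Ctsc, Lgmn and Ctsh (-0.14, limma, Benjamini-Hochberg adjusted p = 0.0372) lower, and Ctsl (0.33, adjusted p = 0.000183) and Cst3 (0.16, adjusted p = 0.0136) higher. Leaving out 1 library at a time ended the call in 7 of 12 cases for Ctsd, 4 of 12 for Ctsc and 10 of 12 for Lgmn, and rescaling by median-of-ratios size factors ended those of Ctsd (-0.28, adjusted p = 0.0829) and Lgmn (-0.15, adjusted p = 0.225) and made Ctsl pass (0.39, adjusted p = 0.0190).

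Within each label alone no member passed for IL-4. In WT, 0 of 10 passed against 10.7% of all genes, with Ctsc (-0.78), Ctsd (-0.31) and Ctsl (0.40) at unadjusted p under 0.05 (25.4% of all genes), and 9 of 10 genes did not overlap between the pairs, against 61.3% of all genes. In KO, 0 of 10 passed against 10.3%, with Lgmn (-0.31, limma, Benjamini-Hochberg adjusted p = 0.0553), Ctsd (-0.37) and Ctsc (-0.65) at unadjusted p under 0.05 (24.2% of all genes), and 8 of 10 did not overlap, against 60.4%. Without either of the WT stiff libraries 3 members passed in WT and 5 in KO. Both labels' IL-4 groups were fitted with their own soft group, and the test of a difference between the labels' IL-4 changes gave 0 of 10 members and 0 of 11194 genes at adjusted p under 0.05, with 0 members and 165 genes (1.47%) at unadjusted p under 0.05.

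**Figure D2:**
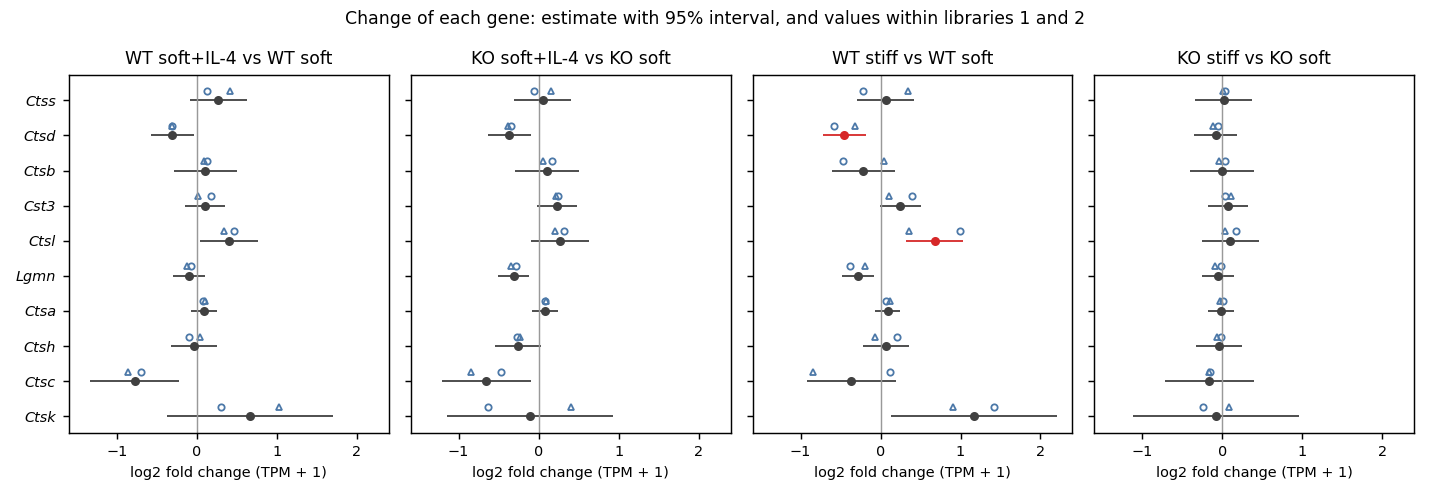
Log2 fold change on the TPM + 1 scale for each gene in 4 comparisons, with the limma estimate and its 95% interval (red where the adjusted p is under 0.05), and open symbols for the difference within libraries numbered 1 (circle) and 2 (triangle). Ctsd falls by 0.31 and 0.37 with IL-4 in WT and KO and by 0.45 with stiffening in WT, and the KO stiff panel centres on 0.

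Stiffening in libraries labelled WT was accompanied by less Ctsd and more Ctsl. These 2 of 10 members passed, against 10.6% of all genes tested (4.29% higher and 6.31% lower), and 4 of 10 were at unadjusted p under 0.05, against 23.9%. For both genes the stiff libraries differed widely from each other, and WT stiff 1 was the far one.

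Ctsl reached 2927 TPM in WT stiff 1 and 1949 in WT stiff 2, a mean of 2438 ± 692 (SD, n = 2), against 1471 and 1519 TPM in WT soft. Both stiff libraries were above both soft ones, and WT stiff 1 was the highest of all 12. The log2 change was 0.68 (SE 0.161, limma, Benjamini-Hochberg adjusted p = 0.0278), made of 0.99 within number 1 and 0.36 within number 2. Without WT stiff 1 it was 0.38 (limma, Benjamini-Hochberg adjusted p = 0.00553), a value in which WT stiff 2 stood alone and was assumed to vary like the other groups.

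Ctsd read 6038 TPM in WT stiff 1 and 7267 in WT stiff 2, below all soft libraries, with a log2 change of -0.45 (SE 0.119, limma, Benjamini-Hochberg adjusted p = 0.0411). Within number 1 it fell by 0.58 and within number 2 by 0.32. Without WT stiff 1 the change was -0.32 (limma, Benjamini-Hochberg adjusted p = 0.00498), again from WT stiff 2 alone with the spread of the other groups. With only the 4 libraries of the comparison in the fit neither gene passed (limma, Benjamini-Hochberg adjusted p = 0.576 for Ctsd and 0.392 for Ctsl), and leaving out 1 library at a time ended the call in 10 of 12 cases for Ctsd and 6 of 12 for Ctsl.

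Ctsk had the largest difference but also the largest spread. It was 181 and 76.5 TPM in WT stiff against 66.7 and 40.4 TPM in WT soft, with a log2 difference of 1.16 (95% interval 0.13 to 2.20, limma, Benjamini-Hochberg adjusted p = 0.16). Within number 1 it was 1.42 and within number 2 it was 0.90. Markers of osteoclasts, in which Ctsk is a defining protease, were read beside it. Of 8 on the list 7 were in the table and 6 reached 1 TPM, and their summed level was 319 to 374 TPM in the soft groups, 524 to 824 in WT stiff, 424 to 491 in KO stiff and 782 to 887 in soft+IL-4, with the highest sums in soft+IL-4, where Ctsk was 51.6 to 83.9 TPM. Most of that sum was Atp6v0d2, at 238 to 602 TPM, and the markers did not all move alike. Atp6v0d2, Acp5 and Ocstamp were above every soft library in soft+IL-4 and WT stiff. Nfatc1 was 19.0 to 21.8 TPM in soft but 12.9 to 14.4 in soft+IL-4 and 14.9 and 12.6 in WT stiff. Dcstamp was 8.10 TPM in WT stiff 1 and 127 in WT stiff 2, against 36.1 to 44.7 in soft. The part of these markers in the Ctsk values was not tested. In such bulk samples fewer cells of a type and less RNA per cell cannot be told apart.

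Lgmn was 895 and 1002 TPM in WT stiff, below every soft library, with a log2 difference of -0.29 (limma, Benjamini-Hochberg adjusted p = 0.0756). Cst3 was 6031 and 5212 TPM, above every soft library, with 0.25 (limma, Benjamini-Hochberg adjusted p = 0.216). In all, 6 of 10 genes did not overlap between WT stiff and WT soft, against 42.8% of all genes. Ctsb, Ctsc, Ctsh and Ctss did overlap, with the stiff libraries on opposite sides of the soft pair for Ctsb and Ctsh, and 1 of them inside it for Ctsc and Ctss. Ctsc was 116 TPM in WT stiff 1 and 80.6 in WT stiff 2, Ctsb 3047 and 4673, Ctsh 288 and 213, and Ctss 8294 and 10222.

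The pair of WT stiff libraries did not resemble each other in these genes. WT stiff 2 lay inside the range of the 4 soft+IL-4 libraries for all 10 members, where 73.4% of all genes did, and inside the range of the 4 soft libraries for 2 of 10 (39% of all genes). WT stiff 1 was inside the soft+IL-4 range for 1 member, Ctsa (24.7% of all genes), and was the highest of 12 libraries for Ctsh, Ctsk, Ctsl and Cst3 and the lowest for Ctsb, Ctsd and Lgmn. The ratio of Ctsl to Ctss, both processors of the invariant chain, was 0.151 to 0.195 in the other 11 libraries and 0.353 in WT stiff 1. The ratio of Cst3 to the sum of the 6 cysteine cathepsins was 0.275 to 0.335 in those 11 and 0.406 in WT stiff 1.

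Direct comparison of WT stiff with WT soft+IL-4 called 0 of 10 members and 0% of all genes (limma), with 0 members and 557 genes (4.98%) at unadjusted p under 0.05, and 5 of 10 members did not overlap, against 29.3%. The intervals were wide. The log2 difference was 0.27 for Ctsl (95% interval -0.09 to 0.64), -0.15 for Ctsd (-0.42 to 0.12), 0.41 for Ctsc (-0.14 to 0.97) and 0.49 for Ctsk (-0.54 to 1.53). With WT stiff 1 as the lone stiff library 6 members passed, and with WT stiff 2 alone 0 did.

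**Figure D3:**
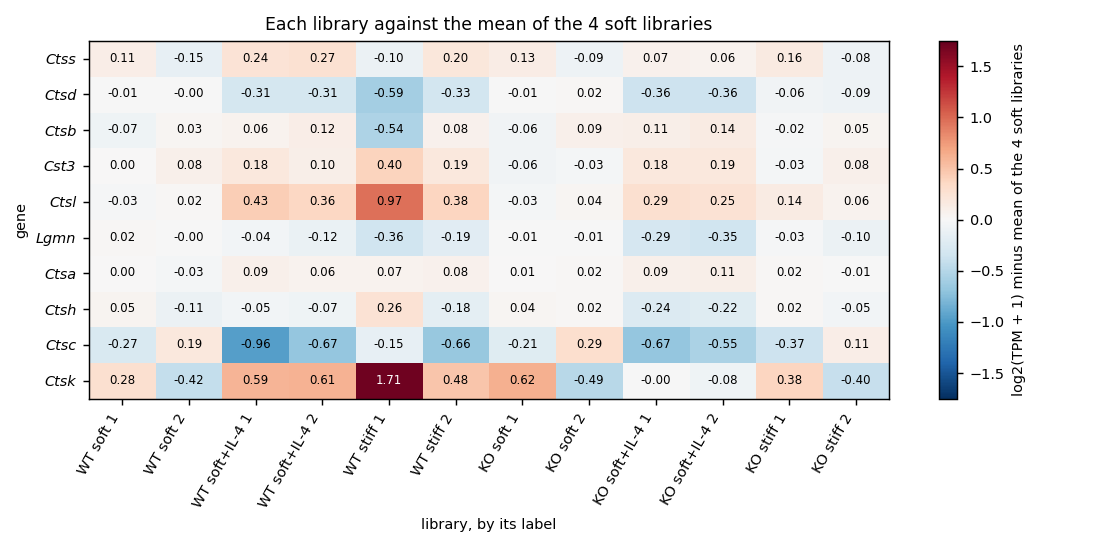
Colour and number give log2(TPM + 1) of each gene in each of the 12 libraries minus the mean of the 4 soft libraries. The WT stiff 1 column reaches 1.71 for Ctsk, 0.97 for Ctsl and -0.59 for Ctsd, while WT stiff 2 shows 0.48, 0.38 and -0.33, and the KO stiff values run from -0.40 to 0.38, both for Ctsk.

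Stiffening in libraries labelled KO gave log2 differences from -0.17 for Ctsc to 0.10 for Ctsl. The 95% intervals were wide for some members, at -1.12 to 0.96 for Ctsk and -0.72 to 0.39 for Ctsc. None of 10 passed, against 0.0447% of all genes (limma), and none was at unadjusted p under 0.05, against 2.64%. Between the pairs 5 of 10 did not overlap, against 32.3%. Ctsl was 1655 and 1564 TPM in KO stiff against 1465 and 1535 in KO soft, a log2 difference of 0.10 with a 95% interval of -0.26 to 0.46. Ctsd was 8717 and 8555 TPM against 9028 and 9244, a difference of -0.08 (-0.35 to 0.19). Both KO stiff libraries were below all soft ones for Ctsd and above all soft ones for Ctsl, by less than any soft+IL-4 library. Lgmn was also below all soft libraries in both, at 1124 and 1069 TPM against 1136 to 1165. KO stiff 1 lay in the range of the 4 soft libraries for 5 of 10 members and KO stiff 2 for 6 of 10, against 53.2% and 66.1% of all genes.

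Comparing KO stiff with WT stiff, 0 of 10 members passed against 4.93% of all genes (limma), with 5 members at unadjusted p under 0.05, against 18.2%. Ctsl was lower in KO stiff by a log2 difference of -0.57 (SE 0.161, limma, Benjamini-Hochberg adjusted p = 0.0827) and Ctsd higher by 0.38 (SE 0.119, limma, Benjamini-Hochberg adjusted p = 0.117). Ctsk (-1.11), Cst3 (-0.26) and Lgmn (0.21) were the others. All 5 did not overlap between the stiff pairs, and 6 of 10 members did not, against 39.1% of all genes. Without WT stiff 1 the differences shrank to -0.28 for Ctsl and 0.25 for Ctsd and both passed (limma, Benjamini-Hochberg adjusted p = 0.0399 and 0.0276), in a fit where WT stiff 2 was the lone library of its group and the other groups gave the spread. The genotype term was also tested as a difference of stiffening changes, and 0 of 10 members passed against 0.974% of all genes, Ctsl being the lone member at unadjusted p under 0.05 (-0.57, SE 0.227, limma, Benjamini-Hochberg adjusted p = 0.384), against 10.9% of all genes. Averaged over both labels, stiffening called 0 of 10 members against 6.47% of all genes, with 3 at unadjusted p under 0.05: Ctsl (0.39), Ctsd (-0.27) and Lgmn (-0.17), against 19.5% of all genes. Over the 4 stiff and 4 soft libraries 3 of 10 members did not overlap, against 8.84%. KO stiff 1 was among the libraries whose Camkk2 level went against the label, and its part in these values was not tested.

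On soft gel no member passed the threshold between the labels. Both labels there mixed high and low Camkk2, at 44.2 and 11.7 TPM in WT soft and 46.6 and 11.5 in KO soft. The comparison therefore cannot show what loss of Camkk2 does on soft gel. KO soft against WT soft called 0 of 10 members and 0% of all genes (limma), with 0 members at unadjusted p under 0.05 (1.16% of all genes) and 3 of 10 not overlapping (24.7%), and log2 differences ran from -0.08 for Cst3 to 0.14 for Ctsk. With IL-4, 0 of 10 members and 0% of all genes passed (limma), with Lgmn as the lone member at unadjusted p under 0.05 (-0.24, against 2.08% of all genes), and 9 of 10 members did not overlap between the pairs, against 38.9% of all genes. Ctsk was 82.5 and 83.9 TPM in WT soft+IL-4 and 54.5 and 51.6 in KO soft+IL-4, and Ctss was 10541 and 10734 TPM against 9369 and 9289. In these groups Camkk2 followed the labels.

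Ctsk and Ctss also differed between the libraries of the groups in which Camkk2 did not follow the labels. In WT soft, KO soft and KO stiff the library numbered 1 had several times the Camkk2 of the library numbered 2, with log2 differences of 1.83, 1.94 and 1.81. Ctsk was higher in number 1 in each of the 3 groups, at 66.7 against 40.4 TPM, 84.7 against 38.7, and 71.3 against 41.0. Ctss was also higher, at 9643 against 8042 TPM, 9723 against 8355, and 9922 against 8401. Ctsc was lower, at 106 against 146 TPM, 111 against 157, and 99.3 against 139. In all, 7 of 10 members kept 1 sign over these 3 groups, against 40.9% of all genes tested, but for Ctsb, Ctsh, Cst3 and Lgmn the log2 differences were at most 0.16 in size. In the soft+IL-4 groups Camkk2 levels were closer, with log2 differences between numbers of 0.03 in WT and 0.39 in KO. Ctsk and Ctss differed between those numbers by at most 0.08. Ctsc was still lower in number 1, with log2 differences of -0.29 in WT and -0.12 in KO. In WT stiff Camkk2 was even as well. The log2 differences of number 1 from number 2 in WT stiff were 1.23 for Ctsk, -0.30 for Ctss and 0.52 for Ctsc. Camkk2 level, library number and the share of genes at 0 moved together in the 3 groups and cannot be told apart there, and no grouping by Camkk2 level was made.

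Among the members themselves, over all 12 libraries, log2 levels of Ctsd ran opposite to those of Ctsl (Pearson r = -0.92) and Cst3 (-0.93) and with Lgmn (0.87), while Ctsl and Cst3 ran together (0.90) and Ctsc ran opposite to Ctss (-0.85). These are descriptions across 12 libraries that share treatments and WT stiff 1. The genes outside the set whose log2 levels were most like a member's by Pearson r over 12 libraries were Fos (r = 0.997), an AP-1 subunit, and the inhibitory receptor Sirpa (0.995) for Ctsd. For Ctsl they were the hexokinase Hk2 (0.989) and the adenylate kinase Ak4 (0.988), for Ctsc the adaptor Lcp2 (0.981) and the efferocytosis receptor Mertk (0.979), and for Ctsb the inhibitory receptor Lilrb4a (0.988) and the ubiquitin-activating enzyme Uba1 (0.978). Without WT stiff 1 these were 0.995 and 0.995 for Ctsd, 0.976 and 0.966 for Ctsl, 0.980 and 0.994 for Ctsc, and 0.922 and 0.885 for Ctsb. Ctss was most like Galnt9 (0.977) and the proton pump subunit Atp6v1a (0.970), Cst3 like Mt1 and Furin (both 0.962), and Lgmn like Cln8 (0.957) and Cyfip2 (0.946). The last 3 were Ctsk with Sdccag8 (0.966) and Rps19 (0.956), Ctsa with Ran (0.935) and Ahcyl2 (0.934), and Ctsh with Rpl5 (0.957) and Tpt1 (0.956).

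The wider lysosomal lists moved in both directions with IL-4 averaged over labels. Of 6 other cathepsins 4 were tested and 1 passed, Ctsz, a carboxypeptidase, which rose from a mean of 2225 to 3453 TPM (log2 change 0.64, limma, Benjamini-Hochberg adjusted p = 0.0036). Its 4 IL-4 values were 3397 to 3549 TPM and its soft values 2118 to 2351 TPM. It was 2312 TPM in WT stiff 1 and 3379 in WT stiff 2. Of 17 V-ATPase subunits, which acidify the lysosome, 5 rose and none fell, against 9.84% of all genes higher and 13.1% lower, led by Atp6v0d2 (1.06) and Atp6v0a1 (1.05), with a list median of 0.23 against -0.05 for all genes.

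Hydrolases and activators other than cathepsins split evenly, with 7 of 39 higher and 7 lower, against 9.84% and 13.1% of all genes, and a median of -0.01. The largest rises were in Acp5, the tartrate-resistant phosphatase (1.14, from 18.7 to 41.9 TPM), and Psap, the saposin precursor (0.62, from 11122 to 17098 TPM), and the largest falls in the sulfatase Sgsh (-0.85) and the thioesterase Ppt1 (-0.63). Among inhibitors of cathepsins 5 of 10 were tested. Of these, Serpina3g (1.82) and Cst7 (1.42), both below 8 TPM throughout, rose and Serpinb6a fell (-0.43, from 559 to 414 TPM). Cstb, the abundant cytosolic stefin, did not pass, at 1699 to 1941 TPM in soft and 2165 to 2441 TPM in soft+IL-4.

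Tfec, a member of the MiT family, was the lone of 4 to pass, with a rise of 1.41 from 15.9 to 43.8 TPM. Of 14 lysosomal membrane proteins Scarb2 (-0.42) and Laptm5 (-0.34) fell, and of 9 sorting genes Gga3 fell (-0.48). Of 8 class II pathway genes Ifi30, the thiol reductase (0.85), and H2-DMa (0.53) rose. With IL-4 averaged over labels, 9.84% of all genes were called higher and 13.1% lower. With stiffening in WT, 2 of 39 hydrolases rose, Acp5 (1.61) and Scpep1 (0.29). The 4 that fell included Acp2 (-0.74), Fuca1 (-0.62) and Idua (-0.43). In the other lists Tfec (1.36), Atp6v0d2 (0.89), Serpina3g (1.58) and Ifi30 (0.67) rose, and Laptm5 (-0.35), Gga3 (-0.44) and Gnptab (-0.45) fell. Of all genes, 4.29% were called higher and 6.31% lower with stiffening in WT. Stiffening in KO called none of these lists' genes and 0.0447% of all genes. Between the stiff groups, where 4.93% of all genes were called, KO was lower than WT for Tfec (-0.87) and Acp5 (-1.23) and higher for Acp2 (0.63).

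**Figure D4:**
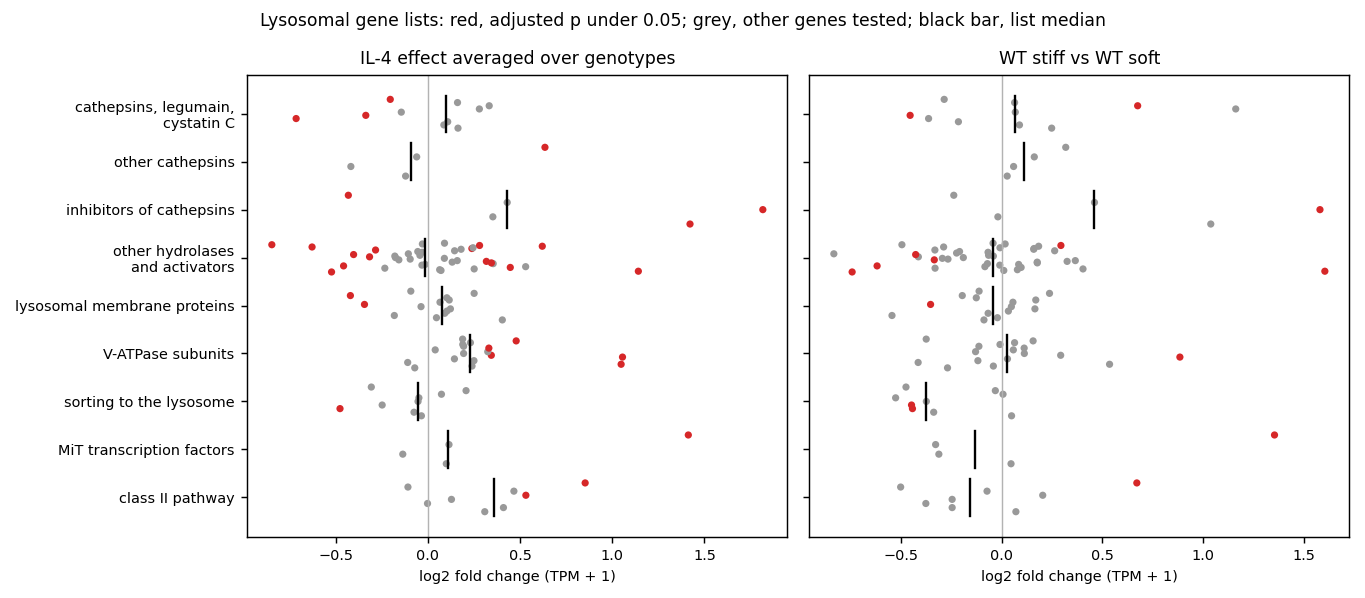
Log2 fold change (TPM + 1) of every tested gene in the member set and 8 lysosomal lists, for IL-4 averaged over labels (left) and stiffening in WT (right), red where the adjusted p is under 0.05, with a black bar at each list's median. The V-ATPase median is 0.23 on the left and 0.03 on the right, and the 10 members hold red points at -0.71, -0.34 and -0.20 on the left.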

How the data were processed

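The authors deposited TPM values per gene, and the submitters' processing notes name Trim Galore 0.6.7, Salmon 1.4.0 and the mm10 build. The study's methods describe STAR and featureCounts for its own tests, and those counts were not used here. A gene was tested if 2 or more of the 12 libraries reached 1 TPM. The test was that of limma 3.58.1 (R 4.3.3) on log2(TPM + 1), with 6 group means, shared spread, a trended prior and a Benjamini-Hochberg adjustment over 11194 genes, at 0.05. Fold changes on this scale understate those of low genes. The fit was tested on simulated data with log2 changes of at least 1 in size and no outlying library. That test does not show how well smaller changes, such as those called in the members, are found. All 10 members were named in every comparison. From each pathway list the 2 largest rises and 2 largest falls past the threshold were named for IL-4 averaged over labels, stiffening in WT and KO against WT on stiff gel. Others were given for context after their values were seen. List genes that passed for IL-4 in WT or KO alone, or for stiffening averaged over labels, were not named. For each member the 2 most correlated genes were named. Members and lists were chosen with earlier results of these data known. Alternatives were a pseudocount of 0.1, no filter, median-of-ratios scaling, a replicate block, only the compared libraries, a log2 limit of 1 and each library left out. Marker lists covered 9 cell types. Those for T cells, erythroid cells and fibroblasts reached 1 TPM for no gene, and B cells for 1, mast cells and basophils for 2, dendritic cells for 4 and neutrophils for 6, with a neutrophil sum of 11.5 to 27.4 TPM.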

Additional observations from a re-analysis of the deposited data

How the results depend on the processing

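No member's call changed direction under any alternative run. IL-4 averaged over labels called 3 members in the main fit, 1 without the filter (Ctsc), 6 with only the compared libraries and 0 at a log2 limit of 1. With 1 library left out it called 0 to 6. Stiffening in WT called 2, but 1 without the filter and 1 with median-of-ratios scaling (Ctsl), 0 with only the compared libraries and 0 at the log2 limit, and 0 to 7 with 1 library left out. With only the compared libraries, IL-4 called 3 members in WT and 4 in KO, and KO against WT with IL-4 called 1 (Ctsk). With 1 library left out, IL-4 called 0 to 3 in WT and 0 to 5 in KO. Stiff averaged over labels called 0, but 1 with median-of-ratios scaling and 0 to 5 with 1 library left out. KO against WT on stiff gel called 0 to 7, WT stiff against soft+IL-4 0 to 6, and the difference of stiffening changes 0 to 4, the highest being without WT stiff 2. Leaving out either WT stiff library leaves the other as a lone library assumed to vary like the other groups. The cause of the other shifts was not tested. Replicate numbers were not taken as pairing the samples, since only 3 of 15 pairs of groups had same-numbered deviations correlated over 0.1 (range -0.05 to 0.31), although numbers went with the share of genes at 0. With a replicate block, stiffening in WT called 3 members (Ctsk added, 1.16, limma, Benjamini-Hochberg adjusted p = 0.0415) and IL-4 averaged 3. Depth is unknown, and 2 libraries a group limit every estimate.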
